A study of Mus musculus with 24 samples.

Results

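The effect of adding Ly to a kinase inhibitor was measured in irradiated mouse lung. Lungs given Ly with Imatinib or Ly with Su after irradiation (IR+Ly+Imatinib and IR+Ly+Su, 2 arrays each) were set against lungs given the kinase inhibitor alone after irradiation (IR+Imatinib and IR+Su, 2 arrays each). The comparison is 4 arrays against 4, with the inhibitor as a term of the model. These 8 arrays belong to a set of 24 that crosses irradiation with Ly, Imatinib, Su and the pairs Ly+Imatinib and Ly+Su. All 8 lungs were irradiated and all 8 received 1 of the kinase inhibitors, so both sides share irradiation and kinase inhibition. The series' design calls the 2 arrays of a group biological replicates, and the labels place them 24 days after irradiation. Ly and Su are the short names of the labels, which give no full compound name, drug dose, radiation dose, strain or age.

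The title of the series names TGF-beta and PDGF signalling and fibrosis of the lung after radiation. TGF-beta is released from a latent form in the matrix, binds a pair of receptor kinases and, through SMAD proteins, raises collagen, fibronectin and other matrix genes in fibroblasts. PDGF ligands drive the division and migration of fibroblasts and smooth muscle through the receptors PDGFR-alpha and PDGFR-beta, and imatinib is a kinase inhibitor that blocks these receptors together with KIT and ABL. Both pathways are known in the irradiated lung for their part in scarring, which follows tissue damage and an influx of macrophages.

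Levels are given as log2 of the background-corrected signal minus the 75th percentile of the same array, so that a level of 0 is that percentile and 1 unit is a doubling. A difference is the mean with Ly minus the mean without Ly on this scale. A gene is said to have risen or fallen when its adjusted p in the limma fit (Benjamini-Hochberg over the 20287 genes tested) was below 0.05. Levels are those of whole lung, where fewer cells of a type and less RNA per cell cannot be told apart. Lung identity was plain in all 8 arrays: all 14 alveolar type I markers and all 19 alveolar type II and surfactant markers tested were above background on each array.

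The 2 arrays of a group correlated at 0.985 for IR+Imatinib, 0.993 for IR+Su, 0.976 for IR+Ly+Imatinib and 0.995 for IR+Ly+Su. The array IR+Ly+Imatinib 1 stood apart, with a median correlation of 0.968 with the other 7 (against 0.978 to 0.986) and 330 spots marked as uneven. All lungs without Ly were hybridised on slide 5 and all lungs with Ly on slide 6, so slide and Ly cannot be told apart in this comparison. The 3 arrays of slide 6 other than IR+Ly+Imatinib 1 had negative controls with a median signal of 2.65 to 2.95, against 6.27 to 7.84 on slide 5. The share of spots well above background was 68.6% to 78.5% on slide 6 and 65.0% to 73.3% on slide 5.

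When Ly was added to a kinase inhibitor, the genes of fibrosis, TGF-beta and PDGF signalling, lipid-handling macrophages and radiation damage that were followed here did not pass the test. Spp1 (osteopontin), Mmp12 (macrophage elastase), Col1a1 and Col3a1 (fibrillar collagens), Fn1 (fibronectin) and Cdkn1a (p21, a p53 target) differed by 0.09 to 0.32 between the sides, with intervals that included 0. Over the whole array 710 genes were higher with Ly (3.5% of those tested), 48 were lower (0.237%), and 758 passed in all (3.74%). Of the 710 genes, 672 had a mean level below -2, and olfactory receptors were the largest family counted among them. The total depended on the handling of background: when it was subtracted spot by spot under the normexp model, limma called 0 genes, while 907 had an unadjusted p below 0.05. The total was 1200 without IR+Imatinib 2, 499 without IR+Ly+Su 1 and 711 without IR+Ly+Imatinib 1.

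Spp1, a matrix protein secreted by macrophages of injured lung, stood at 4.04 and 4.70 with Imatinib, 3.47 and 3.77 with Su, 4.05 and 4.73 with Ly and Imatinib, and 3.67 and 4.12 with Ly and Su. The sides overlapped, and the difference was 0.15 (95% interval -0.39 to 0.68, limma adjusted p = 0.837). On the same scale the irradiated lungs with no drug stood at 7.36 and 6.84 and the untreated lungs at 4.94 and 4.74.

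Mmp12, which degrades elastin, stood at -3.71 and -3.04 with Imatinib, -4.22 and -3.53 with Su, -2.50 and -2.82 with Ly and Imatinib, and -3.75 and -4.17 with Ly and Su. The Imatinib arrays with Ly lay above those without it, while the Su arrays overlapped. The difference over both inhibitors was 0.32 (95% interval -0.32 to 0.96, limma adjusted p = 0.685). Gpnmb, a glycoprotein of lipid-laden macrophages, differed by 0.12 (interval -0.14 to 0.38). Trem2, a lipid-sensing receptor of the same cells, differed by 0.21 (interval -0.33 to 0.75). Of 18 genes of lipid-handling macrophages tested, 0 passed, the median difference was 0.00448 and all 18 intervals lay within 1 unit of 0.

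Among the Imatinib arrays the collagens varied more between replicates than between the sides. Col1a1 stood at 4.13 and 5.32 with Imatinib, 3.74 and 3.70 with Su, 5.46 and 4.24 with Ly and Imatinib, and 4.28 and 4.01 with Ly and Su. An Imatinib-treated array was high on each side, IR+Imatinib 2 and IR+Ly+Imatinib 1. The difference was 0.28 (95% interval -0.55 to 1.10, limma adjusted p = 0.792). Col3a1 was high on the same arrays (5.61 and 5.52, the others 4.02 to 4.59) and differed by 0.22 (interval -0.54 to 0.97). With Su both Ly arrays lay above both others for Col1a1 and Col3a1, by 0.43 and 0.36 on average, and neither passed within Su (limma adjusted p of 0.867 for Col1a1). Fn1, which links cells to matrix, differed by 0.28 (interval -0.38 to 0.94). Eln (elastin) ranged from 0.19 to 3.96 over the 8 arrays and differed by 0.62 (interval -0.95 to 2.19).

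Over the 32 collagen and matrix genes tested, 0 passed and the median difference was 0.146, with 26 above 0. The median was -0.0123 without the array IR+Ly+Imatinib 1 and 0.291 without IR+Ly+Imatinib 2, so single arrays moved it across 0. The 17 collagen processing enzymes tested had a median of 0.0598, and the 20 smooth muscle and myofibroblast genes a median of 0.0689, with 0 passing in each list. Acta2, the actin of smooth muscle and myofibroblasts, differed by 0.30 (interval -0.26 to 0.85). Its levels were 4.83 and 4.81 with Imatinib, 4.21 and 4.06 with Su, 5.18 and 4.37 with Ly and Imatinib, and 5.01 and 4.53 with Ly and Su, so that the Su arrays with Ly lay above those without it.

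**Figure D1:**
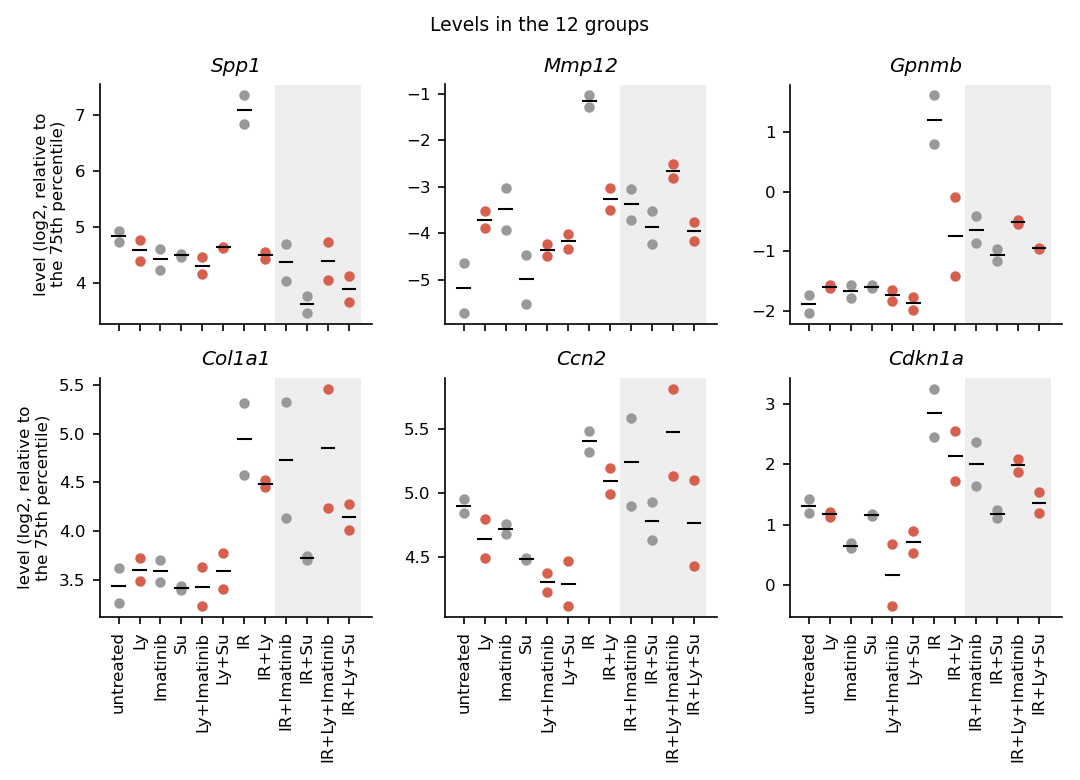
Levels of Spp1, Mmp12, Gpnmb, Col1a1, Ccn2 and Cdkn1a in the 12 groups (log2 signal relative to the 75th percentile of each array). Points are arrays (red with Ly, grey without), lines are group means, and the 4 groups compared here are shaded. Spp1 lies at 3.47 to 4.73 in the shaded groups and at 7.36 and 6.84 in irradiated lungs with no drug.

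Among the ligands of the TGF-beta pathway, Tgfb1 stood at 0.44 and 0.41 with Imatinib, 0.42 and 0.49 with Su, 0.59 and 0.41 with Ly and Imatinib, and 0.46 and 0.21 with Ly and Su. The difference was -0.02 (95% interval -0.23 to 0.18, limma adjusted p = 0.945), so a change of over 0.23 either way lies outside the interval. Tgfb2 had an unadjusted p of 0.025 and a difference of 0.28 (interval 0.05 to 0.52), which did not pass after adjustment over all genes (limma adjusted p = 0.259). The receptor genes Tgfbr1 and Tgfbr2 differed by 0.12 each (intervals -0.15 to 0.39 and -0.03 to 0.28). The probes of Tgfbr1 disagreed, the second giving -1.20 (unadjusted p = 0.0020, adjusted p = 0.059 by limma with every probe tested). Of 19 ligands, receptors and activators tested 0 passed, with a median of 0.0213.

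The response genes of TGF-beta gave a like result. Ccn2 (connective tissue growth factor, a SMAD target) stood at 4.90 and 5.58 with Imatinib, 4.63 and 4.93 with Su, 5.81 and 5.13 with Ly and Imatinib, and 5.10 and 4.43 with Ly and Su. The arrays overlapped within both inhibitors, and the difference was 0.11 (95% interval -0.48 to 0.69, limma adjusted p = 0.900). Smad7, the inhibitory SMAD that TGF-beta itself raises, differed by 0.10 (interval -0.05 to 0.25). Of 32 response genes tested 0 passed, the median was 0.0154, 18 were above 0 and 14 below, and 30 intervals lay within 1 unit of 0. Itgb6 and Id1 had the lowest unadjusted p of this list (0.023 and 0.048, differences 0.27 and 0.28).

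In the PDGF family, the ligand Pdgfa differed by -0.01 (95% interval -0.20 to 0.18), the receptor Pdgfra by -0.03 (interval -0.31 to 0.25) and the receptor Pdgfrb by 0.01 (interval -0.22 to 0.24). Pdgfb stood at -2.05 on IR+Ly+Imatinib 1 and at 0.63 to 0.95 on the other 7 arrays, which gave a difference of -0.64 with a wide interval (-2.21 to 0.93). The second probe of Pdgfb gave 0.19 (unadjusted p = 0.052, limma), and that of Pdgfra -0.31 (unadjusted p = 0.021, adjusted p = 0.25 by limma with every probe tested). Kit, the stem cell factor receptor, differed by 0.05 (interval -0.43 to 0.53). Csf1r, the receptor that keeps macrophages alive, stood at 2.17 on both Imatinib arrays, 2.66 and 2.63 with Su, 2.35 and 2.26 with Ly and Imatinib, and 2.35 and 2.23 with Ly and Su. With Su both Ly arrays were lower and with Imatinib both were higher, and the difference over both inhibitors was -0.11 (interval -0.37 to 0.15). The other probes of Csf1r gave -0.48 and -0.068. The list of 14 PDGF family genes and kinases blocked by imatinib had 0 genes passing and a median of -0.000891.

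The p53 targets and the inflammatory genes gave the same count. Cdkn1a stood at 1.65 and 2.37 with Imatinib, 1.24 and 1.12 with Su, 2.09 and 1.88 with Ly and Imatinib, and 1.19 and 1.55 with Ly and Su. The arrays overlapped within each inhibitor, and the difference was 0.09 (95% interval -0.33 to 0.50). Mdm2, the ubiquitin ligase of p53, differed by 0.00 (interval -0.14 to 0.14), and of 29 p53 targets tested 0 passed. Of 29 inflammatory cytokines and chemokines 0 passed, with a median of 0.109. Cxcl5, a neutrophil chemokine, had the lowest unadjusted p among them (0.031, difference 1.10, interval 0.13 to 2.07, limma adjusted p = 0.291).

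Over all 47 lists, 892 genes were tested and 2 passed (0.224%, against 3.74% of all genes). An unadjusted p below 0.05 was reached by 51 of the 892 (5.72%, against 13.8% of all genes). The interval lay within 1 unit of 0 for 759 of the 892 (85.1%). The number that passed was 0 without IR+Ly+Su 1, 4 without IR+Ly+Imatinib 1 and 8 with array weights (4 higher and 4 lower). Of the 892 genes 848 were above background on all 8 arrays, and above a mean level of -2 the share of all genes that passed was 0.342%. The 2 genes were Prtn3 and Trib3. Prtn3, a neutrophil granule protease, stood at -5.14 and -5.22 with Imatinib, -5.75 and -5.12 with Su, -4.32 and -4.19 with Ly and Imatinib, and -4.22 and -4.40 with Ly and Su. It was well above background on all arrays with Ly and on none without. Prtn3 thus entered the test through the arrays with Ly alone, so its direction was largely set by the filter. Among genes above background on all 8 arrays, 0 list genes passed. With the deposited background-corrected signal the rise of Prtn3 was at least 1.86-fold (difference 1.03, SE 0.14, limma adjusted p = 0.011). Prtn3 passed in 14 of 21 alternative settings, with differences of -0.19 to 1.19.

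Trib3, a pseudokinase induced by endoplasmic reticulum stress, was above background on all 8 arrays. Its levels were 0.05 and -0.01 with Imatinib, 0.01 and 0.20 with Su, -0.21 and -0.38 with Ly and Imatinib, and -0.27 and -0.38 with Ly and Su. All Ly arrays lay below all others, and the fall was 0.37 (SE 0.073, limma adjusted p = 0.047, 1.29-fold). Trib3 passed in 4 of 23 alternative settings, with differences of -0.42 to -0.32, and its second probe gave -0.20 (adjusted p = 0.33 with every probe tested). The list names do not describe Prtn3 and Trib3 as a group: each was the sole member of its list to pass.

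**Figure D2:**
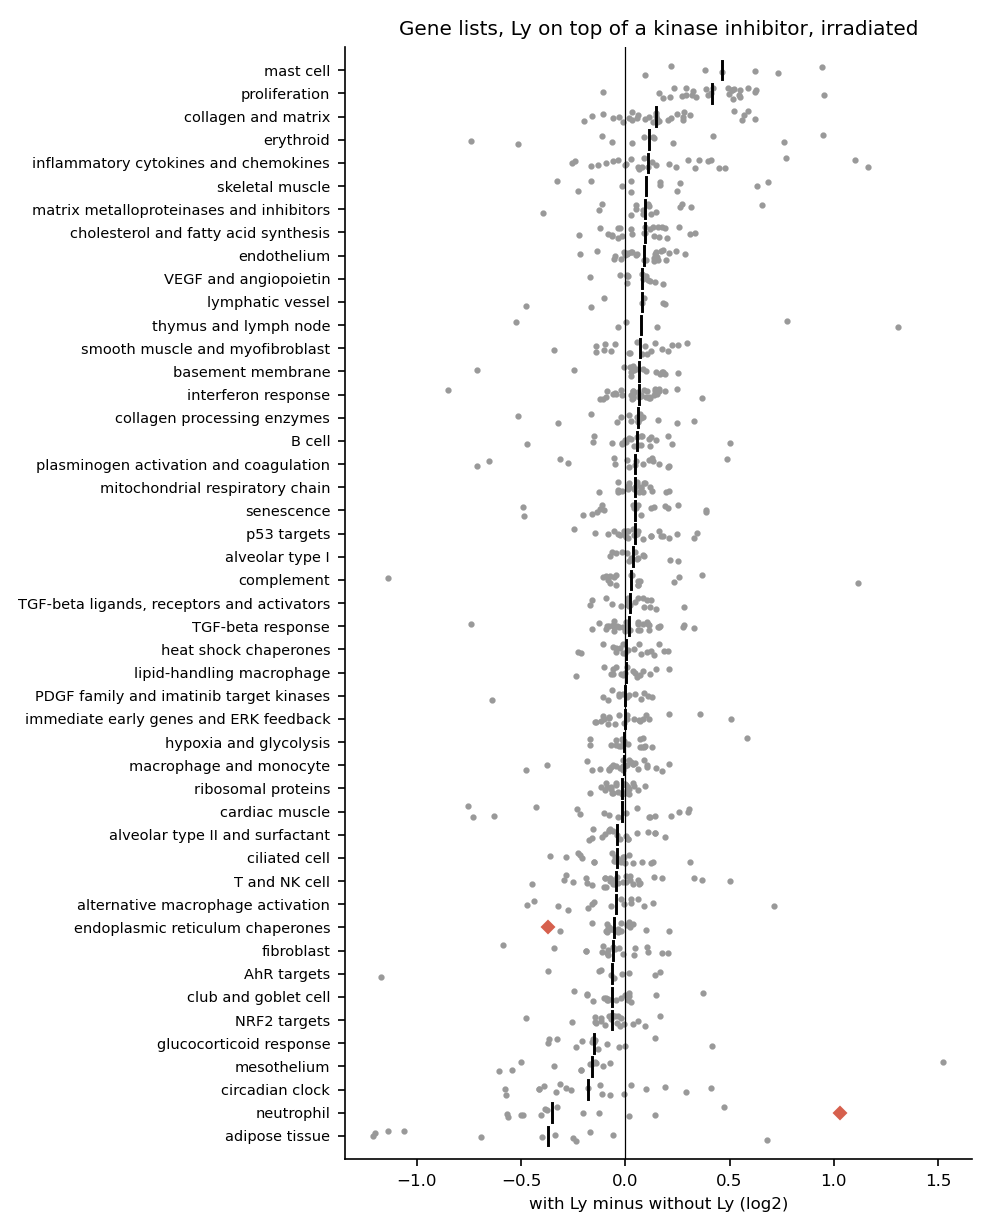
Differences with Ly on top of a kinase inhibitor for the members of 47 gene lists (log2). Points are genes, bars are list medians, and red diamonds are the 2 genes that passed the test (Prtn3 and Trib3). List medians run from -0.370 for adipose tissue to 0.463 for mast cells. Leaving out 1 array moved the former to between -0.503 and -0.220 and the latter (7 genes) to between 0.0925 and 0.929.

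Cell type markers also moved with single groups. The 12 adipose tissue genes tested had a median of -0.370, and 4 of them had an unadjusted p below 0.05. Adipoq (adiponectin) stood at -1.18 and -2.0 with Imatinib, -0.87 and -0.99 with Su, -3.57 and -4.23 with Ly and Imatinib, and -1.22 and -0.85 with Ly and Su. Both IR+Ly+Imatinib arrays were the lowest of the 8, and Adipoq and Plin1 (the lipid droplet protein perilipin) fell in the comparison within Imatinib, by 2.31 (SE 0.34, limma adjusted p = 0.045) and 1.70 (SE 0.25, limma adjusted p = 0.041). With the replicate number as a block, limma called 0 genes within Imatinib, so neither passed there. The summed linear signal of the 12 genes, relative to the 75th percentile, was 22.8 to 28.3 without Ly and 16.4 to 26.3 with it. The part of adipose tissue in the other results was not tested.

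The proliferation list had a median difference of 0.415, with 27 of 28 genes above 0 and 0 passing. Mki67, a marker of dividing cells, stood at 0.30 and 0.45 with Imatinib, 0.81 and 0.46 with Su, 1.82 and 0.98 with Ly and Imatinib, and 0.69 and 0.74 with Ly and Su. The highest value was that of IR+Ly+Imatinib 1, where the summed signal of the list was 50.8, against 22.9 to 30.9 on the other 7 arrays. Without that array the list median was 0.150. Neutrophil genes had a median of -0.352 over 14 genes, with S100a8 at -0.50 (interval -0.99 to -0.01) and Cxcr2 at -0.49 (interval -0.91 to -0.08), while Prtn3 went the other way. The 19 circadian clock genes had a median of -0.178 and 0 passing, with Dbp, a clock output gene, at 3.96 and 4.38 with Ly and Imatinib and 4.44 to 5.38 on the other 6 arrays. Sampling time is not in the labels, and the part of time of day was not tested.

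The 710 genes that were higher with Ly lay in dim probes. Below a mean level of -2, 672 genes were higher and 43 lower of 7698 tested (9.29%), and above it 38 were higher and 5 lower of 12589 (0.342%). Below -6 the share was 22.8% and above 0 it was 0.0361%. Of the 1286 genes that were above background on no array without Ly, 367 were higher. These genes entered the test through the arrays with Ly alone, so their direction was largely set by the filter. Only 40 genes were above background on no array with Ly, and 11 of them were lower. Of the 16942 that were above background on all 8 arrays, 234 were higher and 21 lower. When the test was run on the brighter genes alone, 15 genes passed, all higher.

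**Figure D3:**
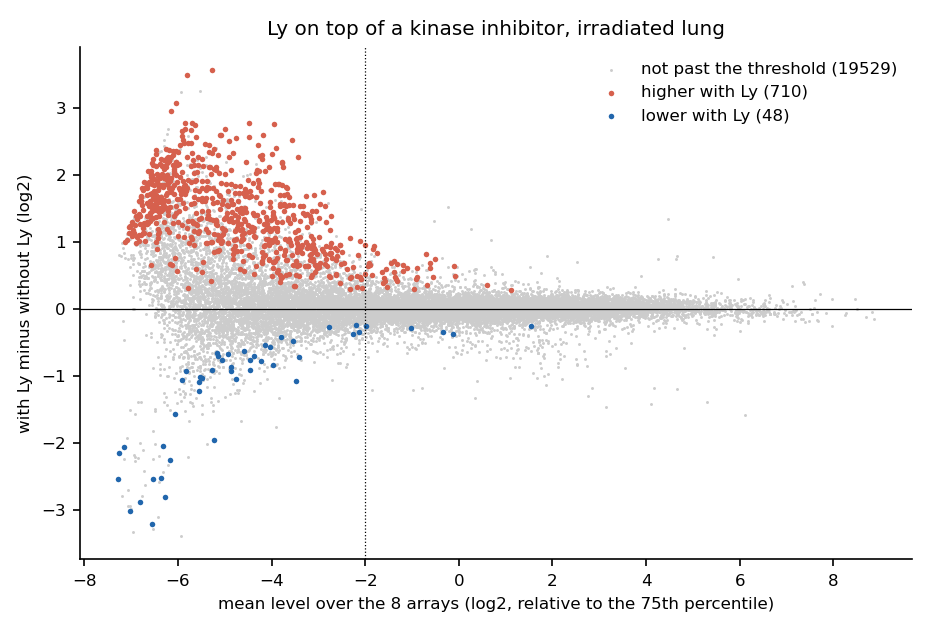
Difference with Ly minus without Ly (log2) against the mean level over the 8 arrays (log2, relative to the 75th percentile) for the 20287 genes tested. Red points are the 710 genes higher with Ly, blue points the 48 lower, grey points the rest, and the dotted line marks a level of -2. Most red and blue points lie to the left of the line.

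Among the genes with the largest rises was Olfr1232, an olfactory receptor, at -7.51, -7.63, -7.43 and -7.59 without Ly and at -3.99, -4.18, -3.92 and -4.12 with it. No array without Ly was above background for it, so that its rise was at least 2.47-fold (difference 3.49, SE 0.080, limma adjusted p = 4.9e-05). Here a bound sets the mean with Ly against the lowest level detected on each array without it. Where the gene's own level on such an array was higher, as for Prtn3, that level was used. An undetected level can thus lie above the lowest detected one, so a bound is not a strict limit. Such a bound holds for the deposited background-corrected signal alone. Over the alternative settings the log2 difference went down to 0.44 for Olfr1232. With that signal 4930591A17Rik and 1600012P17Rik rose at least 6.30-fold and 3.67-fold. Ugt3a2, a glycosyltransferase, rose at least 3.28-fold and Gast, which encodes the stomach hormone gastrin, at least 2.05-fold. Their lowest log2 differences over the alternative settings were 0.89, 0.67, 0.43 and 0.13. Of the 15 genes with the highest differences, 7 were olfactory receptors, and 14 were above background on no array without Ly.

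The families of receptors described next were chosen after their values were seen. Of 301 olfactory receptor genes tested 134 were higher with Ly (44.5%, against 3.5% of all genes) and 0 were lower, with a median difference of 1.28. Of 27 vomeronasal receptor genes 10 were higher, and of 10 defensin genes 5. The 3.5% covers all levels, while 22.8% of genes below a mean level of -6 and 10% from -6 to -5 passed in either direction. A gene could enter the test through a group with Ly alone. On slide 5 the olfactory receptor genes had a mean of -6.15 to -5.71, below the lowest detected levels there (-5.43 to -5.23). How far the filter set the direction of these families was not tested. Olfactory receptors sense odorants in the nasal epithelium, and vomeronasal receptors sense pheromones.

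The slides hold the treatment groups apart: slides 6 and 3 hold all lungs with Ly and an inhibitor and slides 5 and 2 all lungs with an inhibitor alone, so that slide and treatment cannot be told apart there. The mean level of the olfactory receptor genes was -4.86 to -4.71 on slide 6 and -6.15 to -5.71 on slide 5. Among the unirradiated lungs it was -5.35 to -4.96 on slide 3 (Ly with an inhibitor) and -6.45 to -6.35 on slide 2 (inhibitor alone). On slides 1 and 4, which each hold lungs with and without Ly and no kinase inhibitor, it was -5.92 to -5.47. On the 3 arrays of slide 6 other than IR+Ly+Imatinib 1 the lowest detected level was -6.77 to -6.46, against -5.43 to -5.23 on slide 5. On IR+Ly+Imatinib 1, which had the highest olfactory mean (-4.71), it was -5.52, and on slide 3 it was -5.28 to -5.13.

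**Figure D4:**
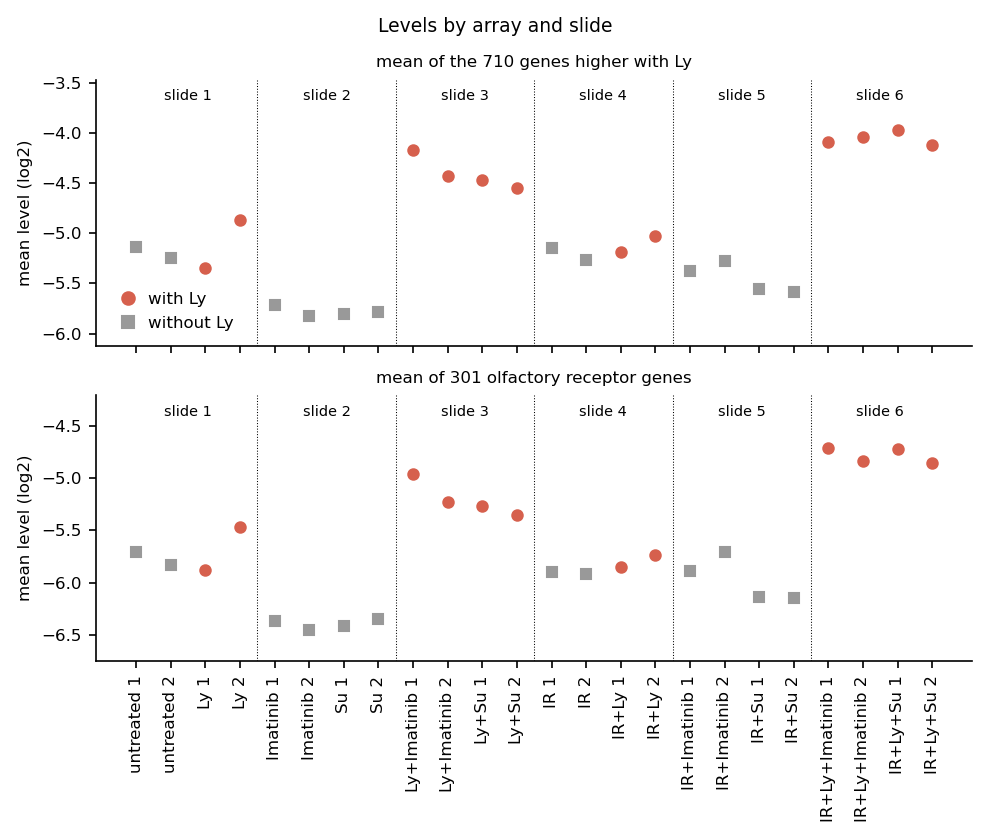
Mean level (log2, relative to the 75th percentile) of the 710 genes higher with Ly (top) and of 301 olfactory receptor genes (bottom) on each of the 24 arrays, with slides parted by dotted lines. Red circles are lungs with Ly and grey squares lungs without. Slide 6 is the highest in both panels and slide 2 the lowest. The genes of the upper panel were chosen for being higher on slide 6 than on slide 5. Those of the lower panel had passed the detection filter, for which detection in any group on slide 5 or on slide 6 was enough. A gene could thus enter the lower panel through slide 6 alone.

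The size of these differences changed with the background correction. In the 710 genes the median difference was 1.37 with the deposited background-corrected signal and 0.497 with no background subtraction, where 291 genes were higher and 7 lower. With normexp after subtracting each array's median background, 235 genes were higher and 14 lower, and the median over the 710 was 0.421. With normexp spot by spot it was -0.0126, and 342 of the 710 were above 0. In that setting the fitted background of IR+Su 1 was -356, against -24.7 to 4.09 on the other 7 arrays, and normexp spot by spot with that array left out called 265 genes. The settings with no subtraction, with each array's median background and with IR+Su 1 left out were added after the data were seen.

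Of the 12589 genes with a mean level above -2, 38 passed as higher and 5 as lower. The genes named next were picked from those that passed and whose Ly arrays kept apart from the others within both inhibitors. With 2 arrays against 2, genes that did not pass can be parted too, as Smad7 was (limma adjusted p = 0.557). The share of all 12589 that were parted is not given, so the parting is a rule of choice alone. The genes were chosen after their values were seen. Il27, a subunit of the cytokine interleukin 27, stood at -1.54 and -1.49 with Imatinib, -1.76 and -1.79 with Su, -0.88 and -0.91 with Ly and Imatinib, and -1.01 and -1.09 with Ly and Su. All Ly arrays were above all others, and the rise was 0.67 (SE 0.053, limma adjusted p = 0.0010, 1.59-fold). It passed in 22 of 23 alternative settings, the exception being spot by spot normexp, with differences of 0.43 to 0.69. Sema5b, a semaphorin of axon guidance, rose by 0.71 (levels -1.80 to -1.63 without Ly and -1.07 to -0.98 with it), while its other probe gave 0.11 (adjusted p = 0.95 by limma with every probe tested). Mc3r, a melanocortin receptor, rose by 0.93, and Galr3, a galanin receptor, by 0.89.

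Of the 48 lower genes, 6 of the 15 named were above background on no array with Ly. Slc15a1, a peptide transporter, was at least 2.40-fold lower with the deposited signal (difference -2.52, SE 0.37, limma adjusted p = 0.013). Over the alternative settings its difference was -3.06 to -0.41. Gad1, which makes the transmitter GABA, stood at -4.41 to -4.09 without Ly and -5.71 to -5.07 with it, a fall of 1.05 (SE 0.15, limma adjusted p = 0.013), while its second probe gave -0.12. Wdr89 fell by 0.77 and Lgals12, a galectin of fat cells, by 0.70. Slc15a1 passed in 15 of 21 alternative settings, Gad1 in 16 of 21, Wdr89 in 19 of 22 and Lgals12 in 14 of 22. In the brighter range Cdyl2, a chromodomain protein, stood at 1.63 to 1.68 without Ly and 1.38 to 1.44 with it, a fall of 0.25 (SE 0.046, limma adjusted p = 0.034). Ttc8, a component of the ciliary BBSome, fell by 0.35. Cdyl2 passed in 7 of 23 alternatives and Ttc8 in 6 of 23, and the second probe of Cdyl2 gave -0.0059 (adjusted p = 0.98 by limma with every probe tested).

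Promoters of the genes higher with Ly were searched for motif letters, as a description only. A RefSeq promoter of 250 bases before to 50 after the start was found for 396 of the 710 higher genes and 12596 of the genes tested. The SMAD-box letters CAGACA (either strand) stood in 25% of the 396 and 16.8% of the 12596. The xenobiotic element core GCGTG stood in 20.5% and 46.3%, and the E-box CACGTG in 5.81% and 9.23%. The SMAD palindrome GTCTAGAC stood in 0% and 0.23%, the heat shock letters GAANNTTC in 9.34% and 6.01%, and the interferon-stimulated response element in 5.3% and 3.06%, all searched on both strands. These shares describe letters in the windows and say nothing of binding. The sets of promoters were not matched for base composition, so their shares are not a like comparison.

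The comparison was also made within each inhibitor. With Imatinib 331 genes passed (289 higher and 42 lower, 1.63%), and with Su 565 passed (560 higher and 5 lower, 2.79%). The count within Imatinib ran from 199 without IR+Ly+Imatinib 1 to 790 without IR+Ly+Imatinib 2 (507 higher and 283 lower), and it was 268 higher and 209 lower without IR+Imatinib 1. That within Su was 138 without IR+Ly+Su 1, 215 without IR+Ly+Su 2, 261 without IR+Su 1 and 224 without IR+Su 2. Among the 5 lower with Su was Clec4e (Mincle, a macrophage receptor for microbial glycolipids), which fell by 1.21 (SE 0.16, limma adjusted p = 0.023). Osbpl8, an oxysterol-binding protein, fell by 0.48 (limma adjusted p = 0.029). Clec4e passed in 3 of 7 alternatives and Osbpl8 in 1 of 7. Without IR+Ly+Su 1 or IR+Ly+Su 2 limma called 0 genes lower with Su, and 1441 and 1799 genes had an unadjusted p below 0.05 in either direction.

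The test of the difference between the inhibitors, in which a slide effect common to both cancels, called 0 genes by limma (0% of 20287), and 1455 had an unadjusted p below 0.05. The count was 1 with quantile normalization, 2 without IR+Ly+Imatinib 1, 200 without IR+Imatinib 1 and 261 without IR+Ly+Imatinib 2. Adipoq had a difference between inhibitors of -2.21 (unadjusted p = 0.0046, adjusted p = 0.65 by limma). Which genes respond differently with Imatinib and with Su was therefore not shown by this design.

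Ly without a kinase inhibitor was compared within slide 4 (IR+Ly against IR, 2 arrays each). Of 20409 genes, 122 were higher (0.598%) and 59 lower (0.289%). Spp1 stood at 7.36 and 6.84 without Ly and at 4.44 and 4.55 with it, a fall of 2.60 (SE 0.27, limma adjusted p = 0.0013, 6.08-fold). Cxcl1, a neutrophil chemokine, fell by 2.43 (limma adjusted p = 0.041), Mmp12 by 2.11 (limma adjusted p = 0.041) and Gpnmb by 1.96 (limma adjusted p = 0.035). The B cell transcription factor gene Pax5 rose by 1.76 (limma adjusted p = 0.037). Leaving out arrays moved the count of 181 genes to 33 (IR 1), 7782 (IR 2), 15 (IR+Ly 1) and 42 (IR+Ly 2). The fall of Spp1 passed in all 8 alternatives run for it, that of Gpnmb in 5 of 8, that of Mmp12 in 3 of 7 and that of Cxcl1 in 2 of 7. The rise of Pax5 passed in 1 of 7, with adjusted p up to 0.14 (limma).

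The Ly difference with a kinase inhibitor was then tested against the Ly difference without it. For Spp1 the Ly difference was 0.15 with an inhibitor and -2.60 without. The test gave 2.75 (95% interval 2.04 to 3.46, limma adjusted p = 0.0013), and this passed in all 16 alternatives, at 2.49 to 3.01. Mmp12 gave 2.42 (interval 1.32 to 3.53, limma adjusted p = 0.026) and passed in 7 of 15 alternatives, with adjusted p up to 0.11. Gpnmb gave 2.08 (interval 1.21 to 2.94, limma adjusted p = 0.016) and passed in 13 of 16 alternatives, but not without IR 1 (1.67), without IR+Ly 1 or with the replicate number as a block. Cxcl1 gave 2.73 (limma adjusted p = 0.025) and passed in 8 of 15 alternatives, with adjusted p up to 0.15. Col1a1 gave 0.73 (interval -0.28 to 1.75, limma adjusted p = 0.34). In total 353 genes had a higher Ly difference with an inhibitor (1.73%) and 141 a lower one (0.691%). Leaving out an array moved the total of 494 to 184 (IR 1), 7454 (IR 2), 177 (IR+Ly 1), 245 (IR+Ly 2) and 760 (IR+Ly+Imatinib 2). The total also fell with IR+Imatinib 1, IR+Ly+Imatinib 1 or any 1 of the irradiated Su arrays left out. In a separate test of the brighter genes alone, 8 had a higher Ly difference with an inhibitor and 16 a lower one. These are not the part of the 353 and 141 that lies in the brighter range. This comparison shares its 8 arrays with the comparison on top of an inhibitor.

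**Figure D5:**
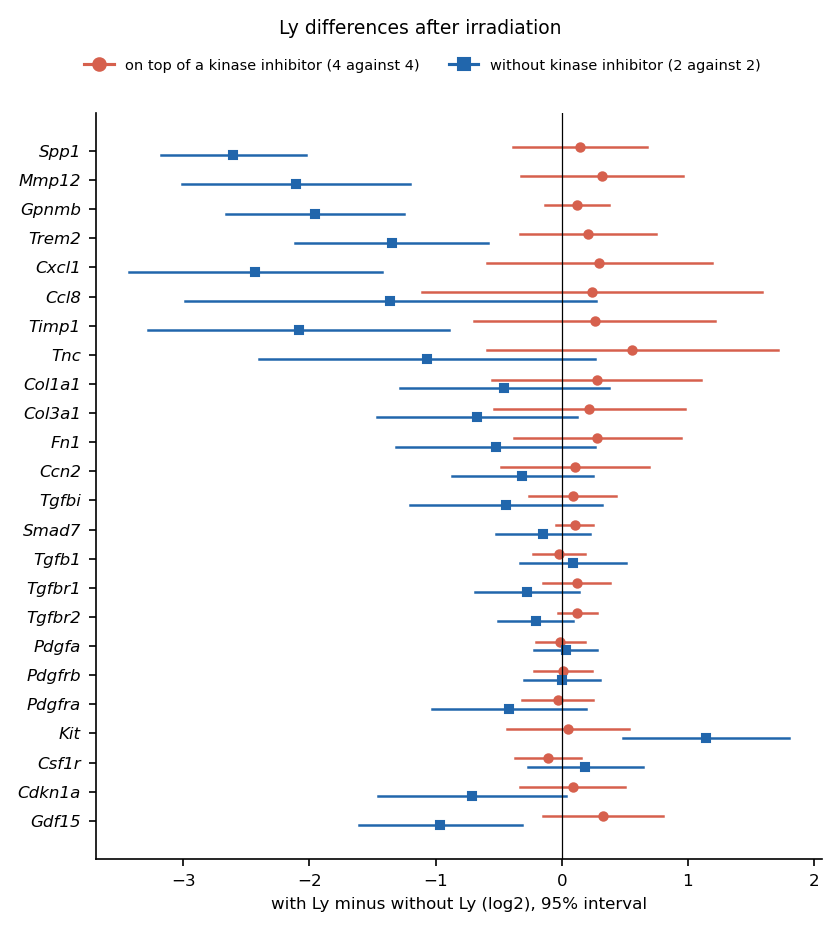
Ly differences after irradiation (log2, mean with Ly minus mean without) for 24 genes, on top of a kinase inhibitor (red circles, 4 arrays against 4) and without one (blue squares, 2 against 2). Lines are 95% intervals from the limma fits. The intervals for Spp1 lie at -0.39 to 0.68 with an inhibitor and at -3.18 to -2.03 without.

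Genes chosen in the lungs without inhibitor share no array with the comparison on top of the inhibitor. Of the 59 genes that Ly lowered there, 54 were tested here, 2 were higher, 0 were lower, and the median difference was 0.075. Of the 122 that it raised, 5 were higher and 0 lower, with a median of -0.018. The median over all genes tested was 0.027. In lungs without inhibitor irradiation raised 1000 genes (4.9%) and lowered 795 (3.9%). That contrast pools lungs with and without Ly, and since the irradiated lungs lie on slide 4 and the others on slide 1, irradiation and slide cannot be told apart in it. Of the raised genes 993 were tested here, of which 18 were higher with Ly and 1 lower (1.81% higher, against 3.5% of all genes). Their median was 0.098, with a range of 0.035 to 0.147 when each of the 8 arrays was left out in turn. Of the lowered genes 786 were tested, with 11 higher, 4 lower and a median of -0.047. With IR 1 left out of the choice, irradiation raised 392 and lowered 241, and the medians were 0.119 and -0.038.

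The same addition of Ly was made to unirradiated lungs (Ly+Imatinib and Ly+Su on slide 3 against Imatinib and Su on slide 2), which again cannot be told apart from slide. There 1104 genes were higher (5.41%) and 75 lower (0.367%). Of the 710 genes higher in irradiated lung, 547 were higher there too, which is 77.0% of the 710 and 49.5% of the 1104. Their median difference there was 1.37, against 0.017 over all genes. In the comparison within slide 4 the 710 genes had a median of 0.052, with 5 higher and 2 lower. The 48 lower genes had medians of -0.011 in unirradiated lung and -0.0042 within slide 4, and 0 of them were lower in either. Spp1 differed by 0.01 in unirradiated lung, and Il27 rose by 0.86 there (limma adjusted p = 0.00014).

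The irradiated and unirradiated differences themselves were told apart for 18 genes (0.0882%), 5 with a higher signed difference after irradiation and 13 with a lower one. C1s2, a complement protease gene, gave 2.80 (SE 0.40, limma adjusted p = 0.015), having fallen by 3.15 in unirradiated lung. Kcne3, a potassium channel subunit, gave 0.99 (SE 0.15, limma adjusted p = 0.032), and Tlx2, a homeobox gene, -2.54 (SE 0.25, limma adjusted p = 0.0011). Kcne3 passed in 6 of 20 alternatives, C1s2 in 16 of 19 and Tlx2 in all 19. The count was 7 without Su 1 and without Ly+Imatinib 2, 63 without IR+Imatinib 1 and 241 without IR+Ly+Imatinib 2. It was 9 to 11 without Su 2, Ly+Su 1, Ly+Su 2, IR+Su 2 or IR+Ly+Su 2. In a separate test of the brighter genes alone limma called 0, and 367 had an unadjusted p below 0.05.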

How the data were processed

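Total RNA of shock-frozen lung was labelled with Cy3 and hybridised to 24 one-colour Agilent arrays, per the labels. Feature Extraction 9.1.3.1 wrote the background-corrected signal intensity of each spot, per the file headers. The deposited series table held the same intensities, with ratios of 0.995 to 1.005 to the scanner values. The log2 intensity minus each array's 75th percentile was used, control spots and outlier spots were left out, and spots of a probe were averaged. Probes were named through RefSeq (GRCm38.p6): 22550 by accession, 6572 by symbol, 3068 by synonym and 8365 by the file's own name. The probe with the highest mean stood for a gene, and a gene was tested when well above background on both arrays of at least 1 group.

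The fits used limma 3.58.1 (R 4.3.3), two-sided, with Benjamini-Hochberg adjustment and a threshold of 0.05. The model of the 8 arrays had the inhibitor and Ly as terms (5 residual degrees of freedom). Within-inhibitor contrasts used group means of the 8 arrays, and all other comparisons group means of the 24. Replicate numbers were not taken as pairs. The source name of IR+Su 2 gives replicate 1 and its title replicate 2, and the title was used. The number of arrays limits the precision.

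Named genes were the 15 highest and 15 lowest with a symbol, past the threshold and without overlap within either inhibitor, up to 4 passing members of each list, the 5 highest and 5 lowest of other comparisons, and 16 genes followed throughout. Some of those in other comparisons are not named. Members and lists were chosen with earlier results of these data known. Alternatives covered normalization, background, filter, floor, probes, arrays fitted, weights, the replicate block and each array left out. A few genes of the lists are not reported here.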

Additional observations from a re-analysis of the deposited data

Results flagged for a closer look

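After irradiation, 494 genes passed the test of the Ly difference with a kinase inhibitor against that without (limma, adjusted p below 0.05). For Spp1 the Ly difference was 0.15 with an inhibitor and -2.60 without, which are 2.75 apart. For Mmp12 it was 0.32 with an inhibitor and -2.11 without, which are 2.42 apart. The arms without inhibitor lie on slide 4 and those with it on slides 5 and 6. The inhibitor and slide therefore cannot be told apart in this test. The Ly difference on top of an inhibitor also differed between irradiated and unirradiated lungs for 18 genes by the same kind of test.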

How the results depend on the processing

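The comparison of Ly on top of an inhibitor gave 758 genes. It gave 211 with genes above background on all 8 arrays, 492 with a floor at -5.23, 1444 with array weights, 15 with brighter genes alone, 0 with normexp spot by spot, 249 with normexp after each array's median background, 298 with no background subtraction, 265 with normexp without IR+Su 1, and 499 to 1200 with 1 array left out. Quantile normalization, the deposited table, no filter, every probe, and both group-mean fits gave 757 to 949. With normexp spot by spot Ltb4r2 went to -0.041 and Prtn3 to -0.19, which reversed their direction. With normexp after each array's median background the other comparisons gave 48 (Imatinib), 221 (Su), 9 (no inhibitor), 503 (unirradiated), 39 (with minus without) and 5 (irradiated minus unirradiated). With brighter genes alone they gave 45 (unirradiated), 24 (with minus without) and 0 (irradiated minus unirradiated). Quantile normalization gave 1 for Imatinib minus Su and 98 for no inhibitor. The normexp alternatives other than spot by spot on all 8 arrays, no subtraction and brighter genes alone were chosen after seeing the data. With 1 array left out the counts were 199 to 790 (Imatinib), 138 to 261 (Su), 0 to 261 (Imatinib minus Su), 15 to 7782 (no inhibitor), 177 to 7454 (with minus without) and 7 to 241 (irradiated minus unirradiated), a lone array being assumed to vary like the other groups. The irradiation genes numbered 633 without IR 1. Where the construction of an alternative does not show why a count moved, the cause was not tested.

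As a check on pairing, deviations of same-numbered arrays correlated at -0.115 for Imatinib and 0.194 for Su, so arrays share only a number. With the replicate block the counts were 567 (main), 0 (Imatinib, 2255 with an unadjusted p below 0.05 by limma), 142 (Su), 3 (no inhibitor), 231 (with minus without) and 4 (irradiated minus unirradiated).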
